A study of Mus musculus with 8 samples.

Results

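The p53 pathway was followed through 30 genes in thymic epithelial cells (TECs) of mice with and without Mcl1. The members were listed by name as p53 itself (Trp53), its regulators and its known targets, leaving out the BCL-2 family, and all 30 were found among the 27179 genes counted. The rule for membership uses no measured value, but the list was chosen with earlier results of these data known. RNA was sequenced from C57BL/6 mice in 4 groups. They were wild-type (WT) cortical TECs (cTECs, 4 libraries), WT medullary TECs (mTECs, 2 libraries), Mcl1 knockout (KO) cTECs (1 library) and KO mTECs (1 library). The labels do not state the age of the mice, what drove the deletion, which part of the gene was deleted, or whether animals were pooled. The series' design text calls the libraries biological replicates without saying that they came from separate animals, and p-values therefore reflect only how these libraries varied, which may be technical.

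p53 is a transcription factor held at low levels by the ubiquitin ligase MDM2 and its partner MDM4. DNA damage and other stresses release it, and it then activates genes for cell cycle arrest, DNA repair, metabolic restraint and cell death. Several of its targets, MDM2 among them, are also transcribed without stress and answer to other factors. MCL-1 is an anti-apoptotic protein of mitochondria that keeps many cell types alive.

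Library totals ran from 11516780 to 19171953 counts. Levels are given as CPM, a gene's count relative to the TMM-scaled library total, in the usual CPM unit. Mcl1 was at 257.2 ± 32.3 CPM in WT cTECs (SD, n = 4) and at 8.22 CPM in KO cTEC, with 157.9 ± 64.1 CPM in WT mTECs (SD, n = 2) and 78.6 CPM in KO mTEC, so the KO mTEC library kept 49.8% of the WT level. The cortical marker list was summed at 5271.0 to 10841.3 CPM in WT cTECs, 10444.6 CPM in KO cTEC and 2209.1 to 2608.3 CPM in the 3 mTEC libraries. WT cTEC libraries also held 10 of 10 mTEC markers and 10 of 10 tuft cell markers. The mTEC markers summed to 3271.3 to 3978.0 CPM there and to 3164.5 and 3440.9 CPM in WT mTECs. Of these 10 markers, 7 were called higher and 3 lower in WT mTECs. Tuft cell markers summed to 1162.4 to 1880.2 CPM in WT cTECs and to 860.3 and 958.0 CPM in WT mTECs. WT cTEC 1 stood apart from the other WT cTEC libraries in immediate-early genes, whose 22 members summed to 3659.9 CPM there and to 20583.5 to 28913.6 CPM in libraries 2 to 4.

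Promoters are shown because p53 acts by binding DNA, and the members differ in whether its consensus lies next to their start. The RefSeq promoter table (GRCm38.p6, the assembly of mm10) held windows of 250 bases before to 50 bases after a start for 23 of the 30 members. The consensus p53 half-site, a 10-base motif that is its own reverse complement, was searched without mismatches, which covers both strands. It was found in 11 of 30 member windows (36.7%), belonging to 10 of 23 genes, against 2745 of all 32851 windows (8.36%). Of the 40 other genes of the pathway described further on, 36 had windows, and 6 of these held the motif. The Cdkn1a window held 2 exact half-sites with 12 bases between them, and only 0.359% of all windows held 2 or more. Half-sites with a mismatch, which may lie next to an exact one, were not counted. The stretches below lie upstream of the start of 6 members whose values are given in the next paragraphs, read 5′ to 3′ on the gene's strand with half-sites in capitals.
Cdkn1a (chr17:29090881-29090962, + strand): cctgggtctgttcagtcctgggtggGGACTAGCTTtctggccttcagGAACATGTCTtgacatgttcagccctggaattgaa
Trp53 (chr11:69580259-69580318, + strand): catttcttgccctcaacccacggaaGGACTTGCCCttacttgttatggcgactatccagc
Mdm2 (chr10:117710910-117710969, - strand): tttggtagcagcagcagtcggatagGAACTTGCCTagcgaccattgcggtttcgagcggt
Ccng1 (chr11:40755437-40755496, - strand): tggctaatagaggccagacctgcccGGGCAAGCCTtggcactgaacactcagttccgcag
Sesn1 (chr10:41887241-41887300, + strand): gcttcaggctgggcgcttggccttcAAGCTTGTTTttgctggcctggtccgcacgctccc
Gadd45a (chr6:67037413-67037472, - strand): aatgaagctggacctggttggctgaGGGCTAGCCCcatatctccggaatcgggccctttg
The half-sites began 73 and 51 bases upstream of the start in Cdkn1a, 75 in Trp53, 186 in Mdm2, 185 in Ccng1, 173 in Sesn1 and 40 in Gadd45a. The Sesn1 start is one of 2 in the table and lies inside the gene. A match describes these letters only. The members that carry it did not share a direction between KO and WT cTECs, as the values that follow show.

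Every member was detected in every library, with at least 21 counts, and all 30 passed the filter on low counts. To compare genes with each other, levels were also divided by gene length (RPKM). On that scale Sfn, which encodes the cell cycle inhibitor 14-3-3 sigma of stratified epithelia, was the highest member in WT cTECs at 415.6 ± 82.5 RPKM (SD, n = 4). Perp, a membrane protein of desmosomes, followed at 375.7 ± 51.1 RPKM, within the spread of Sfn. Phlda3, an inhibitor of AKT signalling, came next at 178.3 ± 19.5 RPKM. Sfn and Perp ranked 1 and 2 in all 4 groups. Cdkn1a, which encodes the CDK inhibitor p21, ranked 4 of 30 in WT cTECs (102.6 ± 16.8 RPKM) and 3 of 30 in WT mTECs (158.4 ± 49.5 RPKM, SD, n = 2) and in KO mTEC, but 20 of 30 in KO cTEC at 5.45 RPKM. Trp53 ranked 8 in WT cTECs and 4 in KO cTEC, going from 52.2 ± 6.22 RPKM in WT cTECs to 107.8 RPKM in KO cTEC. The lowest members in WT cTECs were Eda2r, a receptor of the TNF receptor family, at 0.855 ± 0.367 RPKM and Tigar, a regulator of glycolysis, at 0.883 ± 0.222 RPKM.

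**Figure D1:**
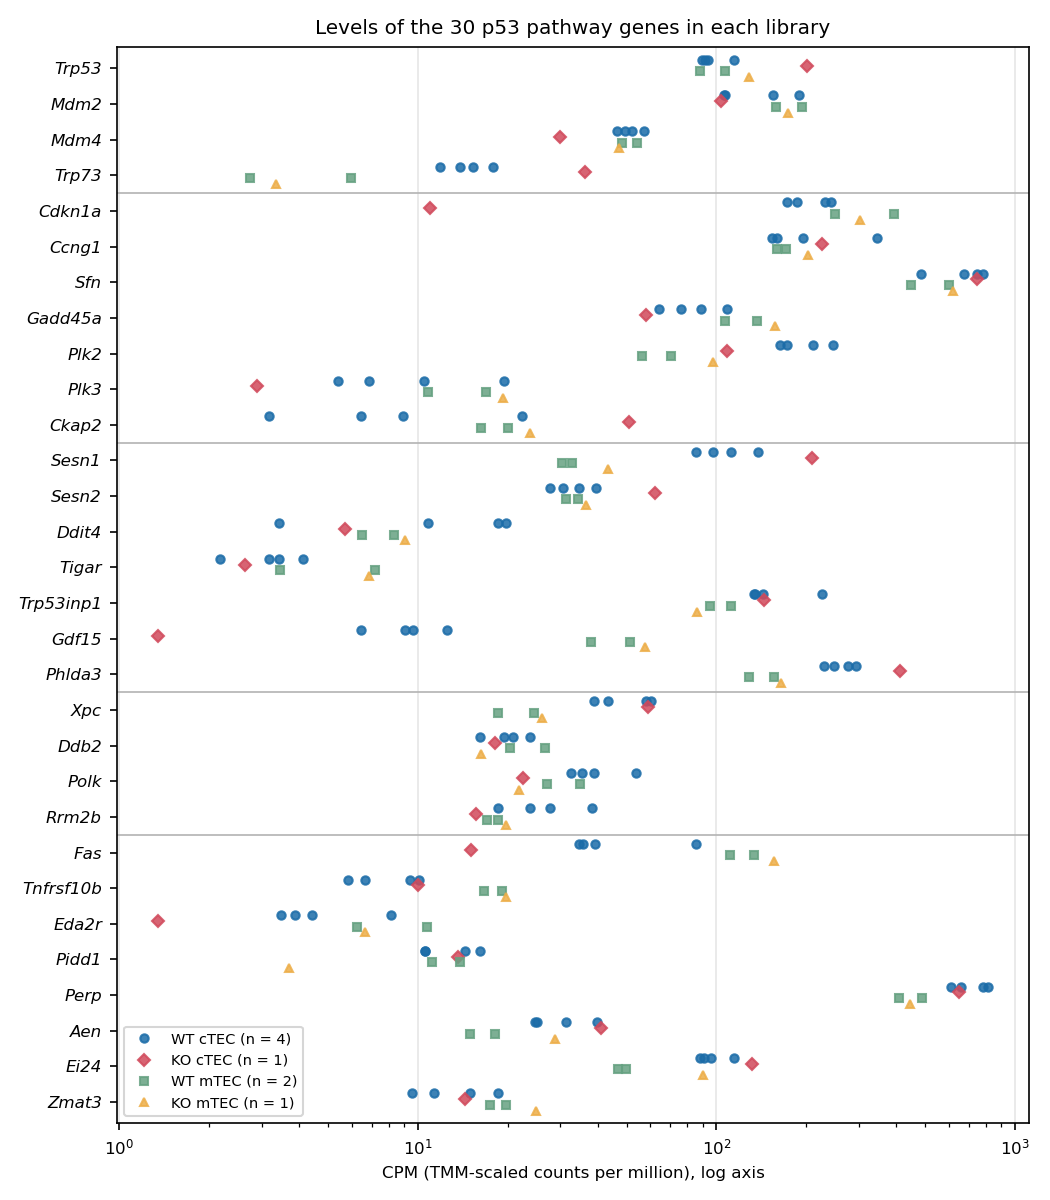
Level of each of the 30 members in each library, as CPM on a log axis. Each point is 1 library, coloured by group, and grey lines separate regulators, cell cycle genes, stress and growth genes, DNA repair genes, and death and surface genes. The KO cTEC point of Cdkn1a (11 CPM) lies far below the WT cTEC points (172.2 to 242.5 CPM), while that of Trp53 (201.4 CPM) lies above them.

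In the cortex, KO and WT cells were compared to learn which pathway genes differ when Mcl1 is missing. The p21 transcript Cdkn1a was 18.8-fold lower in KO cTEC, while the p53 transcript was 2.07-fold higher. Of the 30 members, 3 rose (Trp53, Sesn1 and Sesn2) and 3 fell (Cdkn1a, Gdf15 and Mdm4), and the other 24 did not pass (edgeR, adjusted p under 0.05 over 18163 genes). These are 6 of 30 members, where 17.5% of all genes tested were called, so the share is near the background. By direction, 5.1% of all genes were called higher and 12.4% lower. The median log2 fold change was -0.14 both over the members and over all genes. The KO cTEC library lay outside the range of the WT cTEC libraries for 19 members, 8 higher and 11 lower, and it did so for 61.9% of all genes (29.0% higher and 32.9% lower).

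Cdkn1a was at 172.2, 242.5, 186.2 and 230.5 CPM in WT cTEC libraries 1 to 4 and at 11 CPM in KO cTEC (172 counts, 95% exact binomial interval 9.45 to 12.8 CPM). The KO value was 5.31% of the WT mean and lay far under the lowest WT library. The log2 fold change was -4.23 ± 0.40 (SE, adjusted p = 0.000363). Gdf15, a secreted cytokine of the TGF-beta family raised by many stresses, was at 9.62, 12.5, 9.06 and 6.47 CPM in WT cTECs and at 1.35 CPM in KO cTEC. The latter value rests on 21 counts, with an interval of 0.835 to 2.06 CPM, and was 6.97-fold under the WT mean. Its log2 fold change was -2.79 ± 0.48 (adjusted p = 0.006), a call lost in limma-voom (adjusted p = 0.112). These intervals treat reads as independent, although the reads carry no molecular identifiers, and they leave out the spread between libraries.

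Among the regulators, Trp53 was at 93.9, 91.7, 114.8 and 89.8 CPM in WT cTECs and at 201.4 CPM in KO cTEC. The KO library lay above all 4 WT libraries and was 2.07-fold the WT mean, with a log2 fold change of 1.05 ± 0.20 (adjusted p = 0.00992). Mdm4 was at 49.5, 52.1, 46.5 and 57.1 CPM in WT and at 30 CPM in KO, below every WT library. Its change of -0.77 ± 0.22 stood at the threshold (adjusted p = 0.047) and passed in 5 of 14 alternative analyses. Mdm2, the main brake on p53 and itself a p53 target, was at 139.5 ± 40.3 CPM in WT (SD, n = 4) and at 103.2 CPM in KO, with a change of -0.43 ± 0.34 (adjusted p = 0.419). Trp73, the gene of the p53 relative p73, was at 11.9 to 17.9 CPM in WT and at 36.2 CPM in KO, above all WT libraries, and did not pass (adjusted p = 0.065).

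Both sestrins, which restrain mTORC1 and oxidative stress, were higher in KO cTEC. Sesn1 was at 111.5, 97.1, 137.5 and 85.3 CPM in WT and at 208.2 CPM in KO, a change of 0.95 ± 0.25 (adjusted p = 0.0331). Sesn2 was at 27.8, 39.5, 34.6 and 30.6 CPM in WT and at 62.5 CPM in KO, a change of 0.92 ± 0.24 (adjusted p = 0.0316). For each gene the KO value lay above the 4 WT values, at 1.93 and 1.89 times the WT mean. Each call was lost in 4 of 14 alternatives. Both were lost without either WT mTEC library and with the cTEC libraries alone, Sesn1 also without WT cTEC 2 and Sesn2 without WT cTEC 3 (adjusted p up to 0.0691 and 0.0646).

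**Figure D2:**
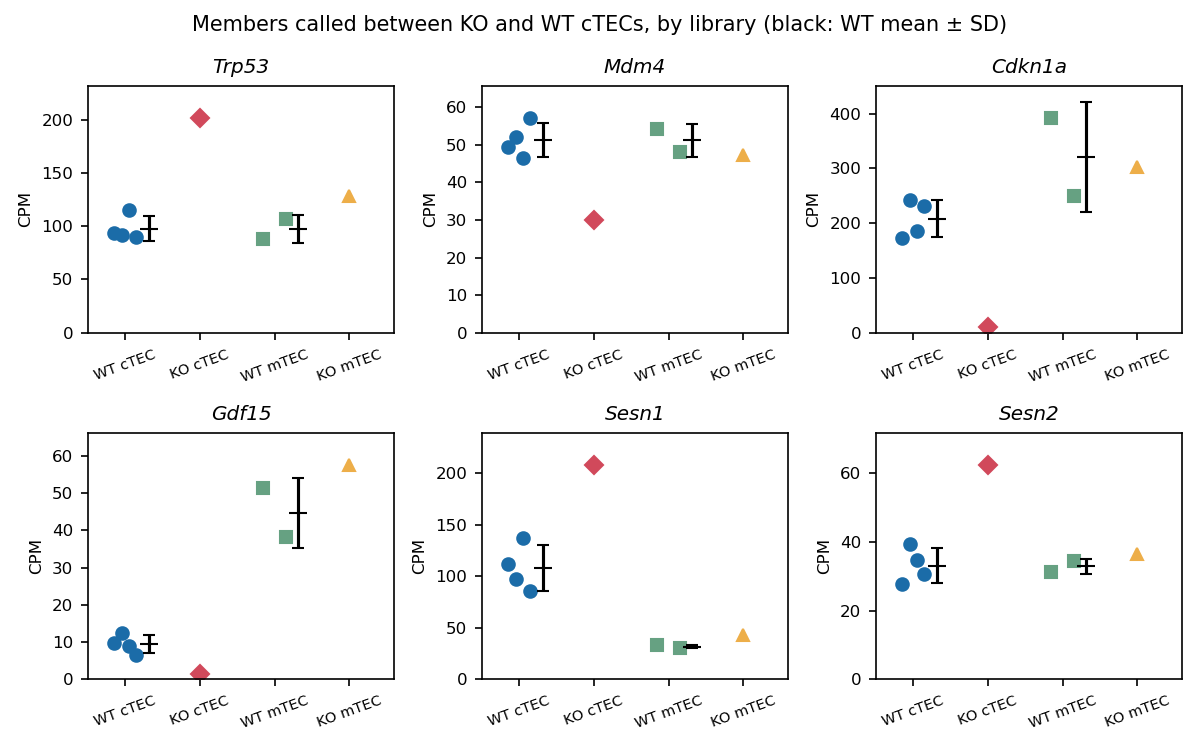
CPM of the 6 members called between KO and WT cTECs, in each library, with axes that start at 0. Points are libraries and black bars are WT means ± SD (n = 4 for cTECs, n = 2 for mTECs). Cdkn1a (11 CPM) and Gdf15 (1.35 CPM) are near 0 in KO cTEC alone, and Trp53, Sesn1 and Sesn2 lie above the WT cTEC points there.

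Among the other cell cycle genes, Ccng1, which encodes cyclin G1 and is a widely used p53 target, was at 345.2, 153.2, 194.5 and 159.2 CPM in WT cTECs and at 224.9 CPM in KO cTEC. The KO value lay inside the WT range, with a change of 0.08 ± 0.41 (adjusted p = 0.917). Sfn was inside the WT range as well (742.9 CPM against 482.8 to 780.7 CPM). Plk2, a polo-like kinase, was at 108.6 CPM in KO and 163.4 to 245.6 CPM in WT (adjusted p = 0.0691). Gadd45a, a stress sensor that binds PCNA and p21, was at 58.2 CPM in KO and 64.4 to 108.5 CPM in WT (adjusted p = 0.263). Ckap2, a spindle protein, was at 51.1 CPM in KO and 3.17 to 22.3 CPM in WT, with the highest fold change among the members (2.32 ± 0.71) but no call (adjusted p = 0.0583).

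Phlda3 was at 228.7 to 292.7 CPM in WT and at 413.3 CPM in KO, above every WT library, and just missed the threshold (0.66 ± 0.20, adjusted p = 0.0577). Plk3, a stress-responsive kinase, was at 5.42 to 19.5 CPM in WT and 2.89 CPM in KO (adjusted p = 0.138). Ddit4, an mTORC1 inhibitor, Tigar and Trp53inp1, a promoter of autophagy and cell death, were inside their WT ranges at 5.71, 2.63 and 144.5 CPM.

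None of the 4 DNA repair members and none of the 8 death and surface members passed. Xpc and Ddb2, damage sensors of nucleotide excision repair, were at 59.1 and 18.1 CPM in KO, inside their WT ranges. Ei24 and Aen, described with the medulla, were above their WT ranges at 131.6 and 41.2 CPM (adjusted p = 0.181 and 0.35). Polk, a translesion DNA polymerase, and Rrm2b, a subunit of ribonucleotide reductase, were at 22.5 and 15.7 CPM, below their WT ranges (adjusted p = 0.127 and 0.22). Fas, the death receptor CD95, was at 85.7, 35.8, 39.1 and 34.7 CPM in WT and at 15.1 CPM in KO. It lay below all WT libraries, with a change of -1.69 ± 0.55 (adjusted p = 0.069). Eda2r was at 3.47 to 8.12 CPM in WT and at 1.35 CPM in KO (21 counts, adjusted p = 0.12). Perp, Tnfrsf10b (the TRAIL receptor), Pidd1 (the scaffold of the PIDDosome) and Zmat3 (an RNA-binding protein) were inside their WT ranges.

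The choice of WT libraries moved the number of calls. A fit kept WT cTEC 1 as the only WT cortical library, assumed to vary like the WT mTEC libraries. There the log2 fold change was -0.97 for Mdm2 and -0.71 for Ccng1, and calls rose in number among members and all genes alike. Without WT cTEC 1 there were 10 calls, against 4182 of all 18079 genes in that fit. Leaving out either WT mTEC library gave fewer calls, among the members and among all genes. DESeq2 gave 5 higher and 6 lower, where 1194 of all 18163 genes were called higher and 3203 lower. Limma-voom gave 5 higher and 1 lower, where 946 of all genes were called higher and 780 lower. In limma-voom Gdf15 and Mdm4 were lost and Ckap2 and Trp73 gained. Ckap2 was called higher in 4 of 14 alternatives (limma-voom, DESeq2, without WT cTEC 1 and against WT cTEC 1 alone) and Trp73 in 3 (limma-voom, without WT cTEC 1 and with the cTEC libraries alone). Cdkn1a and Trp53 were called with the same direction in all 14 alternatives, with log2 fold changes of -4.31 to -4.05 and 1.00 to 1.13.

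Other gene groups moved with Cdkn1a between the cTEC groups. Of 10 tuft cell markers all 10 were lower in KO cTEC, and their summed level was 40.1 CPM there against 1162.4 to 1880.2 CPM in WT cTECs. Of these markers Trpm5, Gnat3, Rgs13 and Hepacam2 were at 0 counts in KO cTEC, and the others were not. Of 10 mTEC markers 8 were lower, with a sum of 1956.2 CPM against 3271.3 to 3978.0 CPM, and Aire was at 0 counts. Of 10 dendritic cell and macrophage markers 9 were tested and 4 were lower, with a sum of 12.1 CPM against 145.6 to 252.5 CPM. Adgre1, Xcr1 and Cd209a were at 0 in KO cTEC. Cd209a was also at 0 in WT cTEC libraries 1, 2 and 3, and Xcr1 in WT cTEC 4. Of 8 fibroblast markers 2 were higher, with a sum of 1047.0 CPM against 715.7 to 923.4 CPM. Of the 8 genes shared by all TECs 4 were higher, with a sum of 9083.3 CPM against 4886.5 to 5576.9 CPM. Of 22 immediate-early genes 2 of the 21 tested were lower, with a sum of 6430.8 CPM in KO cTEC, between WT cTEC 1 and the other WT libraries. The part of these lists in the result was not tested. In such bulk samples, fewer cells that express a gene and less RNA per cell cannot be told apart.

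Genes of G2 and mitosis were higher in KO cTEC. Of 20 such genes 15 were called higher and none lower, with a median log2 fold change of 2.54. Their summed level was 1249.9 CPM in KO cTEC and 419.0, 120.3, 156.2 and 194.9 CPM in WT cTEC libraries 1 to 4. WT cTEC 1 had the highest sum of the WT cTEC libraries, and it also had their highest Ckap2 level. Their part in the members' values was not tested.

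**Figure D3:**
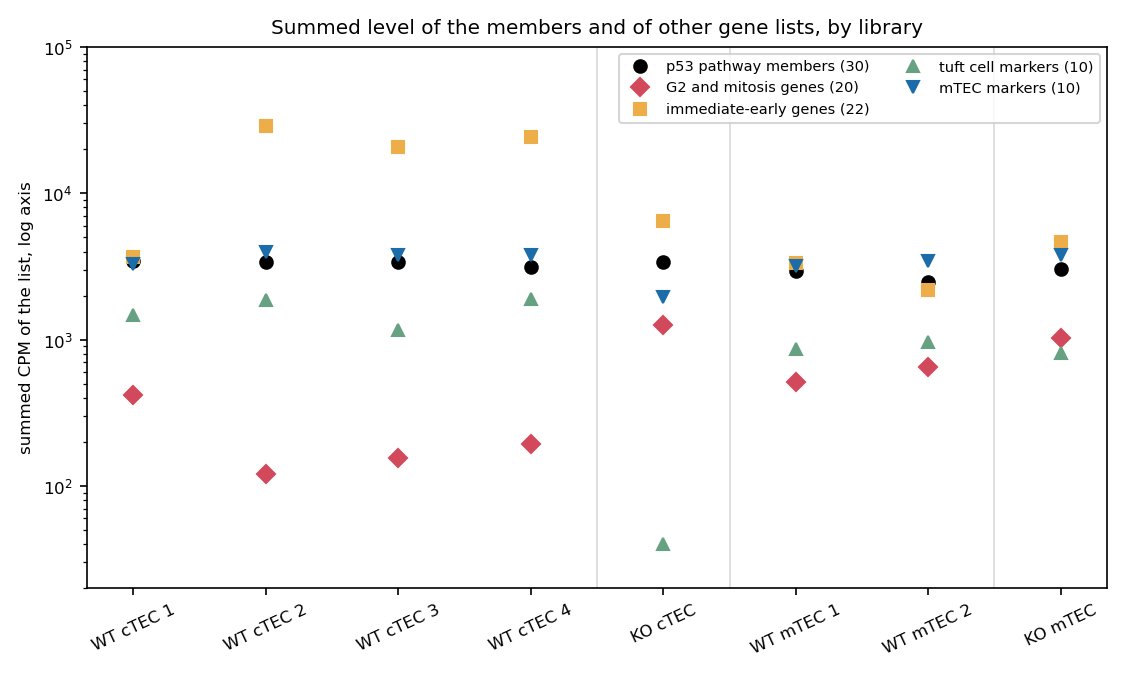
Summed CPM of the 30 members and of 4 other gene lists in each of the 8 libraries, on a log axis, 1 symbol per list. The members' sum is alike in WT cTECs (3159.4 to 3462.7 CPM) and KO cTEC (3401.7 CPM), while tuft cell markers fall to 40.1 CPM in KO cTEC and immediate-early genes set WT cTEC 1 apart from libraries 2 to 4.

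The comparison of KO with WT mTECs asked the same of the medulla, where the KO library kept 49.8% of the WT Mcl1 level. Mcl1 itself was not called (log2 fold change -1.01 ± 0.36, SE), so a lack of calls does not show a lack of change. No member changed by the test, and no gene of all 18163 did (0.0% called by edgeR, with 1502 genes at an unadjusted p under 0.05, 3 of them members). DESeq2 called 139 genes and limma-voom 0, in both cases with no member among them. Cdkn1a was at 391.7 and 250 CPM in WT mTECs and at 302.7 CPM in KO mTEC, between the WT values (-0.08 ± 0.32, adjusted p = 0.981). Gdf15 was at 51.3 and 38.1 CPM in WT and at 57.6 CPM in KO (0.37 ± 0.39). Trp53 was at 87.8 and 106.7 CPM in WT and at 128.7 CPM in KO (0.40 ± 0.24, adjusted p = 0.709). Mdm2 was at 193.3 and 158.6 CPM in WT and at 173.9 CPM in KO, and Ccng1 at 171.4 and 158.9 CPM in WT and 202.9 CPM in KO. Mdm2 and Cdkn1a thus lay between the WT libraries, and the other 3 lay above both.

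The 3 members under an unadjusted p of 0.05 in mTECs were death and surface genes. Ei24, a protein of the endoplasmic reticulum linked to autophagy, was at 49.8 and 46.8 CPM in WT and at 89.9 CPM in KO (0.90 ± 0.22, adjusted p = 0.39). Aen, a nuclease that acts in apoptosis, was at 18.2 and 15 CPM in WT and at 28.9 CPM in KO (0.80 ± 0.34, adjusted p = 0.602). Pidd1 was at 11.2 and 13.8 CPM in WT and at 3.70 CPM in KO (41 counts), a change of -1.75 ± 0.48 (adjusted p = 0.44). Ei24 and Pidd1 were called with the mTEC libraries alone, a fit whose spread comes from 2 WT libraries.

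KO mTEC lay above both WT libraries for 19 members (63.3%) and below both for 5 (16.7%), where 80.4% of all genes lay outside, 38.6% above and 41.7% below. The members' median log2 fold change was 0.27 and that of all genes -0.03. Of the 30 log2 fold changes, 25 were under 0.5 in size and 1, that of Pidd1, was at least 1. Other lists also stood higher in KO mTEC: fibroblast markers summed to 1133.2 CPM there and to 181.8 and 150.6 CPM in WT mTECs, and the G2 and mitosis genes to 1022.9 CPM against 515.0 and 646.8 CPM. Their part in the members' values was not tested.

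The difference between the KO effects was tested directly. The effect in mTECs exceeded that in cTECs by 4.15 ± 0.47 on the log2 scale for Cdkn1a (adjusted p = 0.00167) and by 3.16 ± 0.60 for Gdf15 (adjusted p = 0.0173, edgeR). These 2 calls are 6.67% of the members, against 6.81% of all genes (6.16% in this direction). The Cdkn1a call held in all 13 alternatives (3.86 to 4.5), and that of Gdf15 was lost in limma-voom and without WT mTEC 2 (adjusted p up to 0.228). For Trp53 the difference was -0.64 ± 0.32 (adjusted p = 0.328), for Sesn1 -0.50 ± 0.40 and for Sesn2 -0.76 ± 0.37, so a KO effect particular to cTECs was not shown for these 3. For Plk2 it was 1.48 ± 0.40 (adjusted p = 0.0668, edgeR). Mcl1 itself differed by 3.96 ± 0.50. Medians over marker lists also differed, with 9.51 for tuft cell markers and 4.54 for mTEC markers, against 0.09 over all genes. They were negative for G2 and mitosis genes (-1.67), cortical markers (-0.23) and genes shared by all TECs (-0.32). Unequal loss of Mcl1, cell mix and a response particular to a population cannot be told apart here, and their part was not tested.

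**Figure D4:**
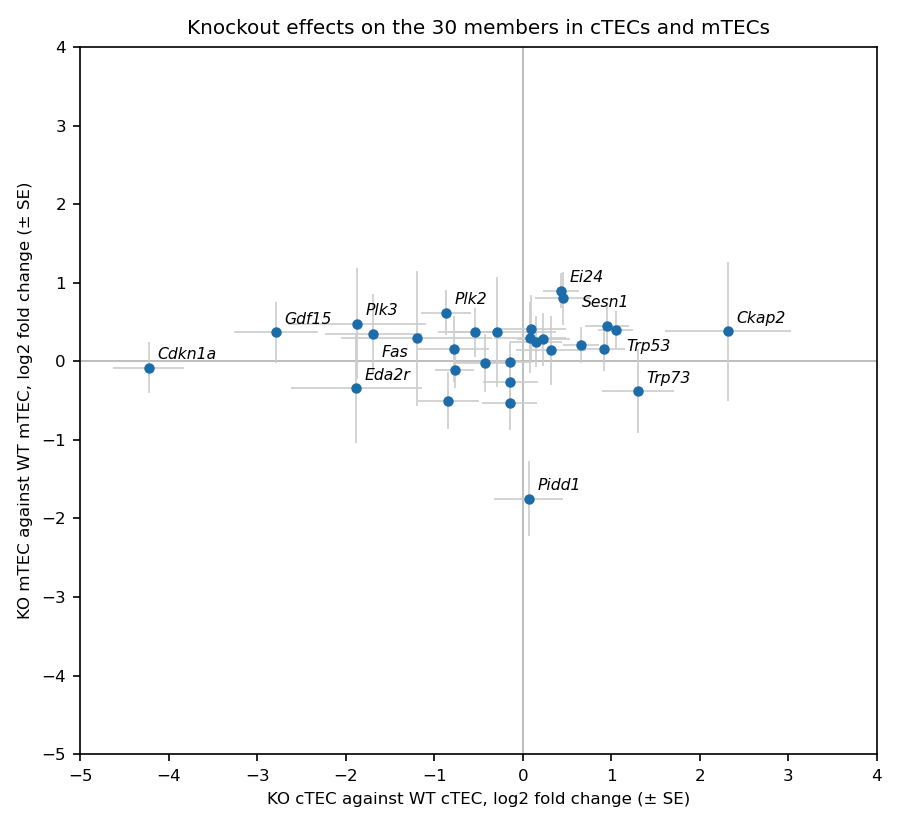
Log2 fold change of each of the 30 members in KO against WT cTECs (x axis) and in KO against WT mTECs (y axis), with SE as grey bars and both axes on the same scale. The points spread along the x axis, from -4.23 for Cdkn1a to 2.32 for Ckap2, and stay between -1.75 and 0.90 on the y axis.

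The comparison of the WT populations asked how mTECs and cTECs differ in the pathway without the knockout. Gdf15, Fas and Tnfrsf10b were higher in mTECs, while Sesn1, Plk2, Trp73, Xpc, Ei24, Phlda3, Aen and Perp were lower. Of the 30 members 3 were higher and 8 lower, 36.7% against 27.0% of all genes tested, with 13.2% of all genes higher and 13.9% lower. The groups did not overlap for 14 members, 4 higher and 10 lower, and for 55.0% of all genes (30.3% higher and 24.7% lower). The median log2 fold change was -0.03 over the members and 0.06 over all genes. The count rests on both mTEC libraries, since leaving out either of them gave fewer calls, among the members and among all genes. With WT cTEC 1 as the sole cortical library the count rose, and so did that over all genes.

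Gdf15 was at 51.3 and 38.1 CPM in WT mTECs and at 6.47 to 12.5 CPM in WT cTECs, with a log2 fold change of 2.25 ± 0.27 (adjusted p = 0.00181). Fas was at 111.4 and 133.2 CPM in mTECs and at 34.7 to 85.7 CPM in cTECs, higher by 1.33 ± 0.36 (adjusted p = 0.028). Tnfrsf10b was at 19.1 and 16.7 CPM and at 5.82 to 10.1 CPM, higher by 1.16 ± 0.31 (adjusted p = 0.0258). The 2 groups did not overlap for these 3 genes. The Fas call was lost in 7 of 15 alternatives and that of Tnfrsf10b in 4, while that of Gdf15 held in all 15.

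Sesn1 was at 32.8 and 30.4 CPM in WT mTECs and at 85.3 to 137.5 CPM in WT cTECs, lower by 3.41-fold (-1.77 ± 0.22, adjusted p = 0.00207). Its relative Sesn2 was alike in both, at 32.8 ± 2.14 and 33.1 ± 5.08 CPM (adjusted p = 0.971). Plk2 was at 70.5 and 56.2 CPM in mTECs and at 163.4 to 245.6 CPM in cTECs (-1.64 ± 0.22, adjusted p = 0.00263). Trp73 was at 2.75 and 5.96 CPM in mTECs and at 11.9 to 17.9 CPM in cTECs (-1.75 ± 0.38, adjusted p = 0.0139). Sesn1 and Plk2 kept their calls in all 15 alternatives, and Trp73 in 14. Xpc (-1.23 ± 0.25), Ei24 (-1.01 ± 0.17), Phlda3 (-0.88 ± 0.17), Aen (-0.86 ± 0.26) and Perp (-0.67 ± 0.18) were lower too, with adjusted p from 0.00543 to 0.0409. The Aen call was lost in 8 of 15 alternatives, that of Perp in 4, that of Phlda3 in 3, and those of Ei24 and Xpc in 2 each, with adjusted p up to 0.273 for Aen and 0.247 for Perp.

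Trp53 did not differ detectably between the WT populations, with 97.3 ± 13.4 CPM in mTECs (SD, n = 2) and 97.5 ± 11.6 CPM in cTECs (SD, n = 4, adjusted p = 0.988). Mdm4 was at 51.2 ± 4.36 and 51.3 ± 4.5 CPM (adjusted p = 0.99). Mdm2 was at 175.9 ± 24.5 and 139.5 ± 40.3 CPM (adjusted p = 0.356). Cdkn1a was 1.54-fold higher in the mTEC mean, with the lowest mTEC library (250 CPM) above the highest cTEC library (242.5 CPM), but did not pass (0.63 ± 0.22, adjusted p = 0.0668). It passed with DESeq2 and with WT cTEC 1 as the only cortical library. Ccng1 had a log2 fold change of -0.37 ± 0.33 (adjusted p = 0.428). The mTEC and cTEC libraries also differed in marker lists: dendritic cell and macrophage markers summed to 833.2 and 1100.2 CPM in WT mTECs and to 145.6 to 252.5 CPM in WT cTECs, and immediate-early genes to 3334.8 and 2187.9 CPM in WT mTECs (5 of 9 called higher and 11 of 21 called lower). Of the 20 G2 and mitosis genes 9 were higher in mTECs and none was lower, with sums of 515.0 and 646.8 CPM against 120.3 to 419.0 CPM. Of 8 genes shared by all TECs 7 were lower, with sums of 3510.0 and 3524.5 CPM against 4886.5 to 5576.9 CPM, and 4 of 10 tuft cell markers were lower. The part of these lists in the differences was not tested.

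**Figure D5:**
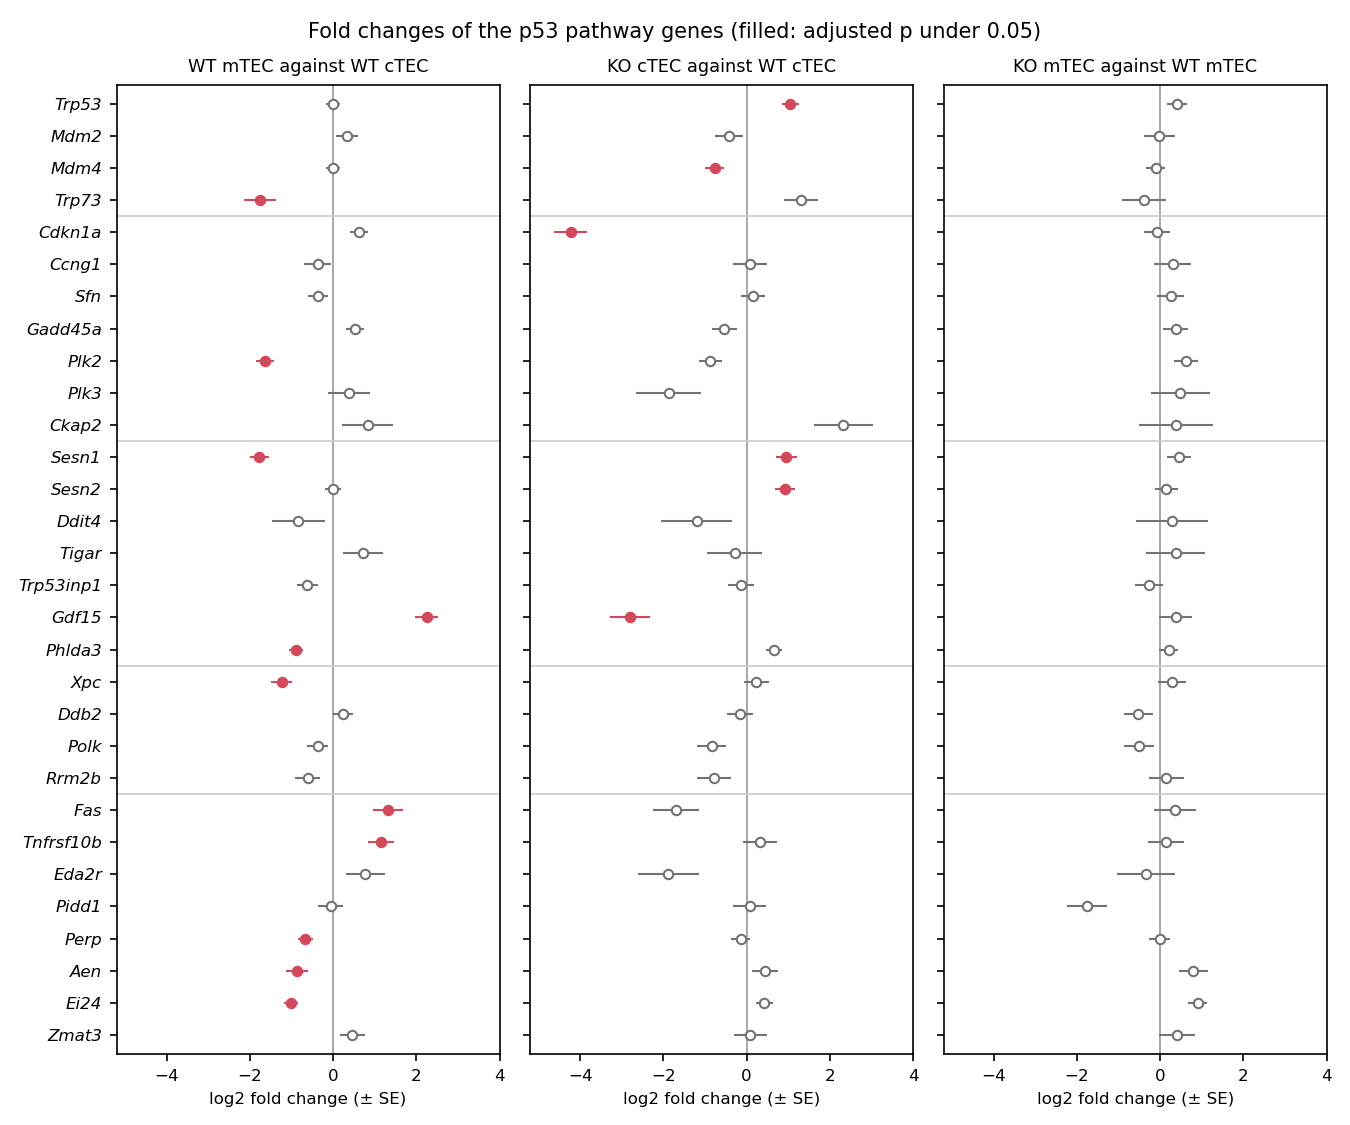
Log2 fold change ± SE of each of the 30 members in 3 comparisons, with members in the same order as their roles. Filled red points passed an adjusted p under 0.05 in edgeR, 11 between WT populations, 6 in KO against WT cTECs and 0 in KO against WT mTECs.

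The members also varied among the WT cTEC libraries themselves. The coefficient of variation was lowest for Mdm4 (8.77%), Phlda3 (10.9%) and Trp53 (11.9%) and highest for Ckap2 (82.2%), Plk3 (59.9%), Ddit4 (57.7%), Fas (50.5%) and Eda2r (42.9%). WT cTEC 1 was the highest of the 4 libraries for 12 members, among them Mdm2, Ccng1, Trp53inp1, Fas, Eda2r, Zmat3 and Polk, and for 32.6% of all genes tested. Ddit4 and Plk3 were lowest there, at 3.42 and 5.42 CPM against 10.8 to 19.7 and 6.89 to 19.5 CPM in libraries 2 to 4.

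A second list of 40 genes of the pathway, made of further targets, kinases that activate p53 and regulators, gave a background for the members. In KO against WT cTECs 1 of the 40 rose and 7 fell, where 5.1% of all genes were called higher and 12.4% lower. Rprm, the cell cycle arrest gene reprimo, was at 5.86 to 8.62 CPM in WT and 0.321 CPM in KO cTEC (-4.52 ± 0.64, adjusted p = 0.00232). Its KO cTEC value rests on few reads, as 3 counts equal 0.193 CPM in that library. Gadd45b, a stress gene related to Gadd45a, was at 73.1 to 116.6 CPM and 21.1 CPM (-2.21 ± 0.31, adjusted p = 0.00217). Dram1, a lysosomal protein of autophagy, was at 103.8 to 176.8 CPM and 39.3 CPM (-1.92 ± 0.34, adjusted p = 0.00663). Gtse1, a microtubule protein of G2 that binds p53, was the gene that rose, from 4.88 to 11.6 CPM in WT to 25.9 CPM in KO (1.64 ± 0.46, adjusted p = 0.0421). The difference of the KO effects was called for 3 of the 40, 7.5% against 6.81% of all genes (6.16% called higher). Rprm was at 4.67 ± 0.75 and Gadd45b at 2.37 ± 0.40.

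Between the WT populations 5 of the 40 were higher in mTECs and 7 lower. Of all genes tested, 13.2% were called higher and 13.9% lower. Rprm, Gadd45b and Cop1, a ubiquitin ligase for p53, were higher by 1.13 ± 0.32, 1.02 ± 0.19 and 0.98 ± 0.21. Thbs1, the matrix protein thrombospondin 1, was lower by 12.5-fold (-3.64 ± 0.66), and Btg2, an antiproliferative gene, by 6.60-fold (-2.72 ± 0.79, adjusted p = 0.0377). In both, as for the immediate-early genes, WT cTEC 1 was the lowest WT cTEC library. Btg2 was at 231.0 CPM in library 1, 1425.8 to 1944.1 CPM in libraries 2 to 4, and 262.0 and 130.2 CPM in WT mTECs, so that library 1 lay between the mTEC libraries and the groups overlapped. Thbs1 was at 53 CPM in library 1, 168.8 to 246.9 CPM in libraries 2 to 4, and 18.0 and 9.87 CPM in WT mTECs, without overlap. Ephx1, an epoxide hydrolase, was even among the WT cTEC libraries (125.0 to 153.4 CPM) and was at 47.3 and 42.1 CPM in mTECs (-1.69 ± 0.17, adjusted p = 0.00107).

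Reads may be shared at some members. The kit as named in the labels is not said to keep strand, and in GENCODE M21 exons of 8 members overlap a gene on the other strand. The overlap was 26.7% of exon bases for Ddb2 (with Acp2) and 19.5% for Gadd45a (with E230016M11Rik), and 10% or less for Cdkn1a, Rrm2b, Trp73, Plk3, Tigar and Ei24.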

How the data were processed

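Polyadenylated RNA from frozen pellets was made into cDNA with SMART-Seq v4 and read from both ends, per the labels' protocols. The deposited values are raw counts per Entrez gene, 1 file per library, made by the authors with featureCounts on mm10, per the submitters' processing notes; no aligner or version is named, which leaves them not given here. A table of the whole series was not used, since its column names match no label. Symbols came from RefSeq (GRCm38.p6), and the 0.887 to 1.683% of counts in identifiers without a symbol stayed in the tests.

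The 18163 genes that reached 1 CPM in 2 or more libraries were scaled by TMM and tested with edgeR 4.0.16 (quasi-likelihood F test, robust, R 4.3.3) in 1 fit with a mean per group and 4 residual degrees of freedom. Tests were two-sided, with Benjamini-Hochberg adjustment over all genes and calls at an adjusted p under 0.05. Each KO group is 1 library, assumed to vary like the WT libraries. The SE is the log2 fold change divided by the square root of F. Alternatives were other scalings and filters, DESeq2 1.42.0, limma-voom (limma 3.58.1), fewer libraries and a replicate block. Same-numbered WT cTEC and mTEC libraries did not deviate together (r = -0.146 and -0.019 over genes), and numbers were not taken to pair libraries. This check cannot exclude pairing, since the deviations of the 2 WT mTEC libraries from their mean mirror each other. The labels name no batch.

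Members and lists were chosen with earlier results of these data known. Statistics were printed for members called in a comparison, for Trp53, Cdkn1a, Mdm2 and Ccng1 in each, and, of the other pathway genes, for up to 3 called per direction whose average log2 CPM was 3 or more. Other members shown were picked for their role or their values.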

Additional observations from a re-analysis of the deposited data

Results flagged for a closer look

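Among the 4 WT cTEC libraries, 1 library stood far from the other 3 in 3 of the 30 members, by a gap that chance gives in about 1 of 20 groups and that 9.03% of all genes showed. Fas was at 85.7 CPM in WT cTEC 1 and at 34.7 to 39.1 CPM in the others. Trp53inp1, a promoter of autophagy and cell death, was at 225.1 CPM in WT cTEC 1 and at 133.9 to 143.5 CPM in the others. Trp53 was at 114.8 CPM in WT cTEC 3 and at 89.8 to 93.9 CPM in the others. The KO effect differed between mTECs and cTECs, by the test of the difference itself, for Cdkn1a (4.15 on the log2 scale) and for Gdf15 (3.16).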

How the results depend on the processing

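Of 458 alternative values of the followed genes, 386 kept direction and side of the threshold, 51 lost a call, 6 gained one and 15 changed sign; the cause was not tested. Between WT populations the replicate block, in a fit of the WT libraries, left 6 members and 1985 genes called. Whether the numbers pair the libraries was not settled. Leaving out 1 library at a time gave 3 to 13 members and 603 to 6763 genes there, 3 to 10 members for KO cTEC, 0 to 7 genes for KO mTEC, and 1 to 4 members and 649 to 1849 genes for the difference of the KO effects. With WT cTEC 1 as the only WT cortical library (libraries 2 to 4 left out), KO cTEC gave 16 members and 6078 genes, KO mTEC 2 and 734, and the difference 9 and 4109. With mTEC libraries alone KO mTEC gave 2 members and 708 genes. DESeq2 called 11 members and 4397 genes for KO cTEC, 139 genes for KO mTEC, and 4 members and 2050 genes for the difference. Limma-voom called 1726 genes for KO cTEC, and 1 member and 104 genes for the difference. For KO cTEC, leaving out 1 WT cTEC library at a time gave 4 to 10 members and 2558 to 4182 genes. Both counts were highest without WT cTEC 1. Of the genes called in KO cTEC, 29.2% were higher in edgeR and 54.8% in limma-voom; between WT populations the share was 48.7% and 58.8%.

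Of the values that changed sign, 1 passed the test: Ccng1 in KO cTEC was -0.71 (adjusted p = 0.0292, edgeR) against WT cTEC 1 alone and ran from -0.05 to 0.41 with 1 library left out, being -0.02 without WT cTEC 4. Between WT populations Trp53 was 0.06 with RLE factors, with DESeq2 and with the block, 0.00 against WT cTEC 1 alone, 0.08 without WT cTEC 3, and -0.15 to 0.14 with 1 library left out, while Mdm2 was -0.15 against WT cTEC 1 alone. For KO mTEC, Mdm2 was 0.01 with RLE factors and with DESeq2 and -0.16 to 0.13 with 1 library left out, and Cdkn1a -0.37 to 0.27. The difference of the KO effects on Ccng1 was 1.01 (adjusted p = 0.0274, edgeR) against WT cTEC 1 alone, and -0.12 to 0.35 with 1 library left out. Each KO group is 1 library, so no spread within KO could be measured, and the low members Gdf15 and Eda2r in KO cTEC, rest on 21 counts.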
